A study of Xenopus tropicalis with 11 samples.

Results

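The regions described here are 10-kb bins of the *Xenopus tropicalis* genome that carried somewhat more Cenp-a ChIP-seq signal than input and lay away from the centromeres. A bin was a member if its Cenp-a to input ratio was at least 1.3 in each of replicates 1, 2 and 3, if all 3 inputs held at least 50 reads in it, and if it lay more than 0.5 Mb from the centromere position of its chromosome. The ratio divides the share of a library's chromosomal reads that fell in the bin in Cenp-a by the same share in the input of that replicate, which equals a ratio of CPM values. This rule found 810 members among 143203 eligible bins, which are the bins that met the conditions on input and position. The chromosomes hold 144914 bins, of which 1000 fell within the centromere distance and 720 under the input minimum.

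There were 11 libraries of native chromatin that had been digested to mononucleosomes with micrococcal nuclease (MNase) and were not crosslinked. Cenp-a (replicates 1, 2 and 3) was pulled down with an antibody raised against the *Xenopus laevis* protein, H4 (replicate 1) and H3 (replicates 2 and 3) represent bulk nucleosomes, IgG (replicates 2 and 3) represents unspecific pull-down, and input (replicates 1, 2 and 3) is chromatin that was not immunoprecipitated. All 11 libraries came from untreated wild-type material of the Nigerian strain, and they differ only in antibody and replicate. The material is the XTN-6 cell line in the source field and in the study's methods, but whole tadpole at NF stage 20 in other fields of the same labels, and read counts per bin cannot tell these apart. The labels call the replicates biological and the study's reporting summary calls them technical, so that a p-value measures only the spread between these libraries.

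Cenp-a is the histone H3 variant that takes the place of H3 in nucleosomes at centromeres, where it is the base on which the kinetochore assembles. A Cenp-a nucleosome also holds H4, whereas an antibody against H3 mainly recovers ordinary nucleosomes. MNase cuts the linker between nucleosomes, so the reads of every library, input included, come from protected DNA, and the yield of a region in the input depends on how readily its chromatin is released. In many organisms small amounts of Cenp-a have been found along chromosome arms, often at active genes.

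Total counts were between 4053600 in IgG replicate 2 and 229872947 in Cenp-a replicate 3. A member held a median of 443, 105 and 1738 reads in Cenp-a replicates 1, 2 and 3, against 307, 221 and 406 reads in the inputs. IgG replicate 2 was the shallowest library, with a median of 22 reads in a member, which limits every ratio that uses it. The counting error of a single member's Cenp-a to input ratio had a median of 0.11, 0.17 and 0.08 on the log2 scale in replicates 1, 2 and 3.

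In the members the Cenp-a to input ratio had medians of 1.57, 1.44 and 1.43 in replicates 1, 2 and 3, against 1.01, 0.987 and 1.00 in all eligible bins. The ratio was the criterion for choosing these bins, so these values describe the members and were not tested. The ratio spanned 1.3 to 8.24 in replicate 1, 1.3 to 3.97 in replicate 2 and 1.3 to 5.45 in replicate 3. Most members lay close to the limit: the lowest of a member's 3 ratios had a median of 1.36, 116 members were at 1.5 or more in every replicate, 7 at 2 or more and 2 at 3 or more. The lowest ratio came from replicate 1 in 105 members, from replicate 2 in 347 and from replicate 3 in 358. The members together held 0.918%, 0.802% and 0.821% of the Cenp-a reads, against 0.539%, 0.543% and 0.540% of the input reads. Just inside the limit, with a lowest ratio of 1.3 after rounding, were bins at actn4, mrtfb and fzd4, and just outside it, also at 1.3 after rounding, were bins at st3gal3, at prmt5 with haus4 and a tRNA gene, and at rps29. The actn4 bin had ratios of 1.45, 1.34 and 1.3 and the st3gal3 bin 1.56, 1.33 and 1.3 in replicates 1, 2 and 3, so that the rule draws its line through bins that do not differ beyond counting error. With edgeR's quasi-likelihood test Cenp-a exceeded input in 806 of the 810 members (Benjamini-Hochberg adjusted p under 0.05, no minimum fold), where 3.81% of all tested bins were called higher. That count, which was 451 without replicate 3, restates the choice of the members.

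How the ratio repeated between replicates was described by choosing bins on 2 replicates and reading the ratio in the third. The bins that also reached 1.3 in the third are the 810 members in each case. These shares therefore describe repeatability between libraries and are no independent support for the members. Of 1136 bins at 1.3 or more in replicates 2 and 3, 71.3% were also at 1.3 or more in replicate 1, against 10.5% of eligible bins, and their median ratio there was 1.46. Of 2663 bins chosen on replicates 1 and 3, 30.4% reached 1.3 in replicate 2, against 6.94% of eligible bins, with a median of 1.18. Of 2285 bins chosen on replicates 1 and 2, 35.4% reached 1.3 in replicate 3, against 3.15% of eligible bins, with a median of 1.23. The left-out ratio was above 1 in 96.7%, 78.7% and 93.9% of these bins in replicates 1, 2 and 3, against 51.2%, 47.3% and 50.2% of eligible bins. Thus in every replicate left out the chosen bins were above 1 more often than eligible bins, but outside replicate 1 most of them stayed below the limit.

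**Figure D1:**
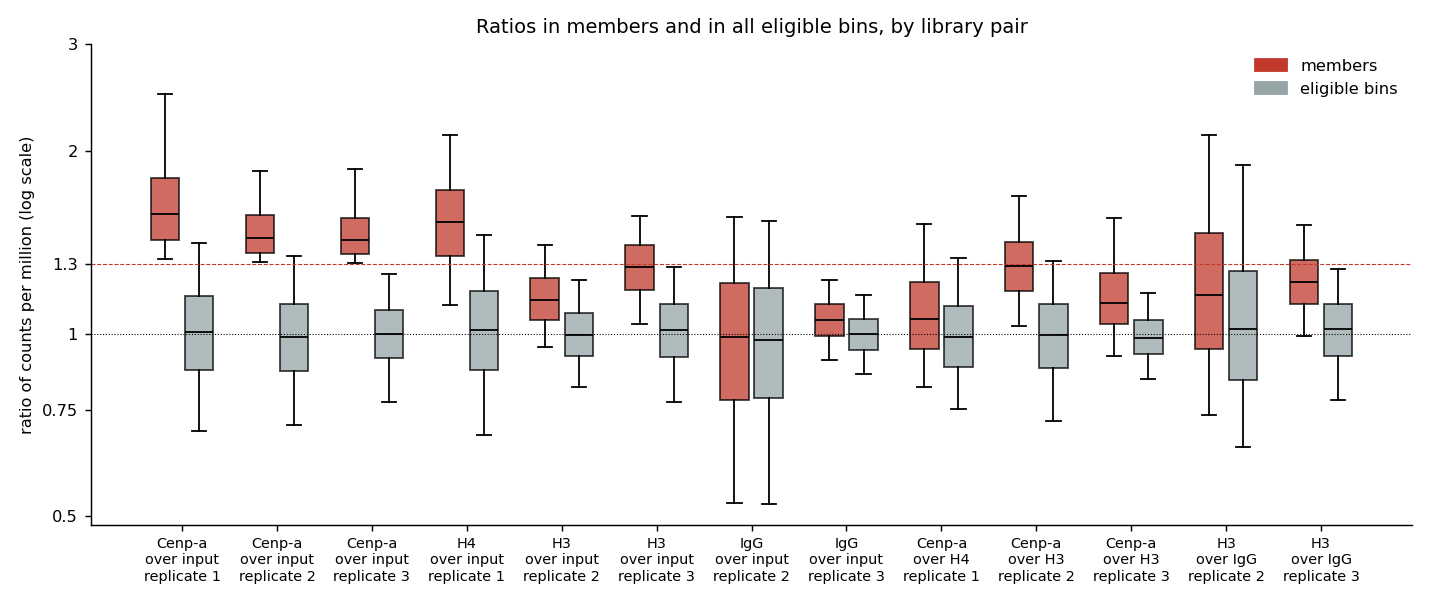
Ratios of CPM for each library pair (log scale), in the 810 members (red, left) and in the 143203 eligible bins (grey, right). Boxes give the quartiles with the median, whiskers the 5th and 95th percentiles, the dotted line marks 1 and the dashed line the limit of 1.3, and the members' median is above the eligible median in each of the 13 pairs, by least for IgG over input in replicate 2 (0.987 against 0.978).

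H4 and H3 were also above input in most of these bins. The H4 to input ratio of replicate 1 had a median of 1.53 in the members against 1.01 in eligible bins, and the H3 to input ratio had medians of 1.14 and 1.29 in replicates 2 and 3, against 0.995 and 1.01. The values of the members exceeded the eligible median in 98.8% of members for H4, and in 89.8% and 96.8% for H3 in replicates 2 and 3. In replicate 1 the H4 ratio thus came near the Cenp-a ratio, while in replicate 2 the H3 ratio was far below it. Averaged over the replicates, the medians were 1.32 ± 0.20 for H3 or H4 over input and 1.48 ± 0.081 for Cenp-a over input (SD, n = 3 each). H4 was measured only in replicate 1 and H3 only in replicates 2 and 3, so antibody and replicate cannot be told apart. These ratios share the inputs with the rule, and a bin whose input happened to be low is raised in both.

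In the test of H3 or H4 against input, 806 of 810 members had a log2 ratio above 0, with a median of 0.39 against 0.01 in all tested bins. Of these, 4 members were called higher and 0 lower, where 0.00415% of all tested bins were called higher and 0.00415% lower (edgeR's quasi-likelihood test). The 4 bins, named after their values were seen, lay at abca1, which exports cholesterol from cells (log2 ratio 0.90 ± 0.14 SE), at acsl4, which activates long fatty acids (0.83 ± 0.13 SE), at rpl10a (0.78 ± 0.13 SE) and in a bin of chromosome 9 with no annotated gene (0.84 ± 0.13 SE). Before adjustment, at p under 0.05, there were 691 members higher and 0 lower, against 15.2% of all tested bins in either direction. DESeq2 called 8 members higher, and edgeR called 0 with TMM factors or without the replicate block. Among all tested bins, DESeq2 called 57 higher and 179 lower, where the edgeR test above called 6 and 6. With TMM factors or without the block, edgeR called 0 of all tested bins higher. Without replicate 1, 2 or 3 edgeR called 19, 502 or 27 members higher. Among all tested bins, 49, 5066 or 40 were called higher in these settings. The libraries of replicate 2 thus weigh most on how many bins pass, in the members and in all tested bins.

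**Figure D2:**
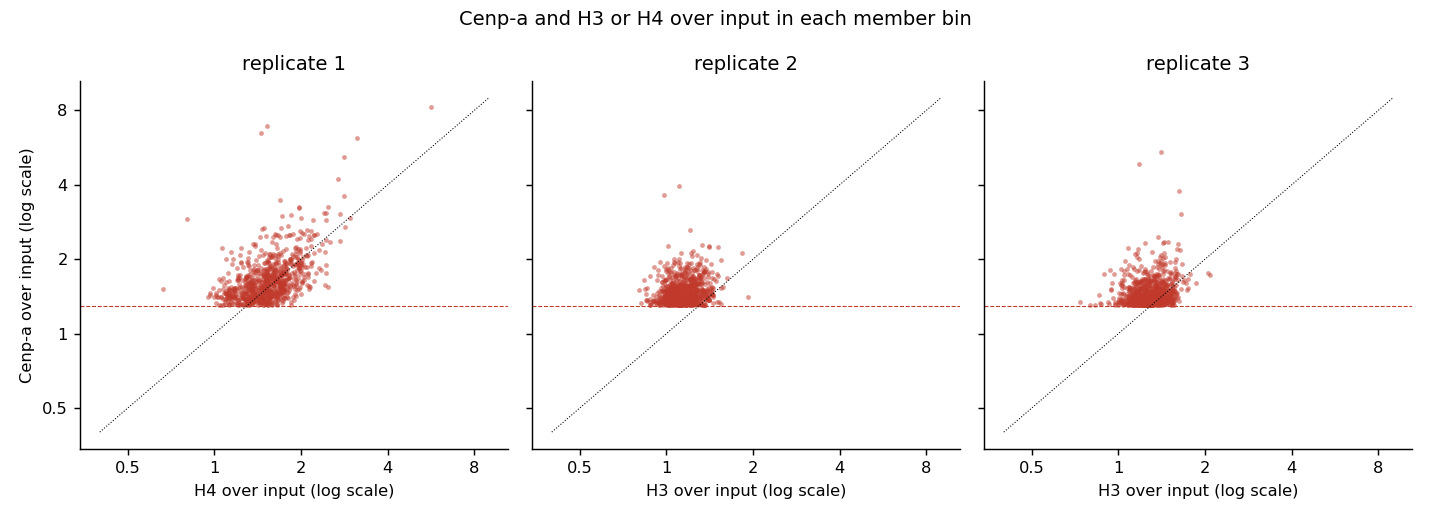
Each of the 810 members by its Cenp-a to input ratio (vertical) and its H4 or H3 to input ratio (horizontal), both on log scales, in replicates 1, 2 and 3. The dotted line marks equal ratios and the dashed line the limit of 1.3, and the cloud lies around the line of equality in replicate 1 and above it in replicates 2 and 3, with the pair of LOC108647437 bins far above it in every replicate.

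Cenp-a was then set against H3 or H4 of the same replicate, which removes the input. The ratio had a median in the members of 1.06 over H4 in replicate 1, and of 1.29 and 1.13 over H3 in replicates 2 and 3, against 0.987, 0.994 and 0.985 in eligible bins. In all 3 replicates 428 members were at 1 or more, 52 at 1.3 or more, 14 at 1.5 or more and 2 at 2 or more. For most members, therefore, an excess of Cenp-a over bulk nucleosomes of the size that defined them over input was not present in every replicate. edgeR called 73 members, all with more Cenp-a than H3 or H4, and 0 in the other direction, where 0.126% of all tested bins were called higher and 0.0076% lower. The Cenp-a libraries are those that chose the members, so this count is no independent evidence of Cenp-a there. Without replicate 3 the count was 28, and without the replicate block, which the same-numbered libraries of these groups bear out as a pairing, it was 10. Among all tested bins, 128 and 99 were called higher in these settings, against 183 with all replicates and the block. The calls in members thus fell further than those in all tested bins.

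Among these 73 bins the log2 ratio of Cenp-a to H3 or H4 was from 0.43 to 2.03. A limit of a protein-coding gene, meaning its annotated start or end, lay in 50 of them (68.5%), against 48.1% of all members. A tRNA gene lay in 6 of them, which is 30% of the 20 members with a tRNA gene. No annotated gene lay in 7 of them, which is 8.05% of the 87 members without one. Of all members, 9.01% were among the 73. The largest log2 ratios, 2.03 ± 0.095 and 2.00 ± 0.095 (SE), belonged to neighbouring bins at LOC108647437. Then came a bin with no annotated gene on chromosome 5 (1.19 ± 0.14 SE), a bin with none on chromosome 4 (0.99 ± 0.099 SE), and bins at vmp1 (0.93 ± 0.11 SE) and higd1a (0.87 ± 0.11 SE). Of the 30 members with the largest lowest-replicate ratios over input, 24 were among the 73, and of the first 10, 8 were. Without the replicate block the LOC108647437 bins were the only 2 of these 8 that were still called.

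IgG gave a much smaller difference. Its ratio to input had medians of 0.987 and 1.05 in members in replicates 2 and 3, against 0.978 and 0.998 in eligible bins. In replicate 3, where IgG was deep, 71.7% of members exceeded the eligible median, and in replicate 2 51.5% did. edgeR called 0 members higher and 0 lower in IgG than in input, where 0% of all tested bins were called higher and 0.00207% lower. Before adjustment, 10 of the 810 members were higher and 0 lower at p under 0.05, against 1.06% of all tested bins in either direction. DESeq2 called 0 members.

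H3 against IgG in replicates 2 and 3 is the comparison that uses no library of the rule. It may still not be free of the choice, since the rule favours bins of low input and IgG was also low in members. Relative to the median eligible bin, the median level of members was 0.917 and 0.931 in IgG and 1.01 and 1.11 in H3. In replicate 2 the excess of H3 over IgG thus reflects low IgG more than high H3. How far the choice enters in this way was not tested. The H3 to IgG ratio had medians of 1.16 and 1.22 in members in replicates 2 and 3, against 1.02 and 1.02 in eligible bins. Averaged over both replicates, the median was 1.19 ± 0.041 in members and 1.02 ± 0.0004 in eligible bins (SD, n = 2 each). The members' ratio exceeded the eligible median in 65.8% of members in replicate 2 and in 93.3% in replicate 3, where IgG held more reads. In the fit 746 of 810 members had a log2 ratio above 0, and the median was 0.26 against 0.02 in all tested bins.

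Single members were seldom resolved in that comparison. edgeR called 1 member higher in H3 than in IgG and 0 lower, where 0.00138% of all tested bins were called higher and 0.00622% lower. This bin, named after its values were seen, lay at ubxn8 and ppp2cb, a phosphatase subunit, with a log2 ratio of 0.76 ± 0.15 SE (adjusted p = 0.0075, edgeR's quasi-likelihood test). Before adjustment, at p under 0.05, there were 169 members higher and 1 lower, against 4.84% of all tested bins in either direction. The median SE of a member was 0.22, nearly as large as the median log2 ratio. The highest log2 ratios of H3 to IgG were 0.81 ± 0.26 SE at igf2bp3, which encodes an mRNA-binding protein, 0.80 ± 0.23 SE at mrtfb, a cofactor of serum response factor, and 0.78 ± 0.24 SE at fhod1, a formin that acts on actin. IgG replicate 2 had 4, 12 and 8 reads in these bins, so that its counting error is large there. The lowest were -0.42 ± 0.18 SE at tex2.2 and -0.26 ± 0.19 SE at rpl12 with mamdc4. None of these 5 bins passed the test, and without the replicate block 0 members were called.

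Read against the median eligible bin of each library, without any ratio, the members had a median Cenp-a level of 1.40, 1.28 and 1.27 in replicates 1, 2 and 3. H4 was at 1.32, H3 at 1.01 and 1.11, IgG at 0.917 and 0.931, and input at 0.882, 0.874 and 0.873. The members thus combined a Cenp-a level above that of the median bin with an input level below it. Members made up 1.26% of eligible bins whose input level was 0.5 to 0.75 times the median, 0.682% of those at 0.75 to 1 times and 0.377% of those at 1 to 1.5 times, where their share over all eligible bins was 0.566%. The share was 0.969% under 0.5 times, 0.245% at 1.5 to 2 times, 0.303% at 2 to 5 times and 0.342% over 5 times. Since the input is the denominator of the rule, part of the higher shares at low input follows from the choice itself.

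The bins around the members were also read. The members were chosen on Cenp-a over input and the bins around them were required not to be members, so a fall away from a member is built into these values. In the bins next to a member that were not members themselves, Cenp-a over input had medians of 1.21, 1.07 and 1.17 on one side and 1.2, 1.08 and 1.17 on the other in replicates 1, 2 and 3. At 100 kb it was 1.08, 1.02 and 1.06 on one side and 1.08, 1.01 and 1.05 on the other. H4 over input was 1.24 and 1.25 in the adjacent bins and 1.14 and 1.14 at 100 kb, above its eligible median of 1.01. H3 over input lay nearer to its eligible medians, 0.995 in replicate 2 and 1.01 in replicate 3. In the adjacent bins it was 1.03 and 1.04 in replicate 2 and 1.13 and 1.13 in replicate 3. At 100 kb H3 over input was 1.02 and 1.01 in replicate 2 and 1.07 and 1.06 in replicate 3. IgG over input at 10 kb was 0.963 and 0.970 in replicate 2 and 1.02 and 1.01 in replicate 3. Joining members at most 20 kb apart gave 675 runs, of which 573 were a single bin and 102 had 2 to 4 members, together 237 bins.

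**Figure D3:**
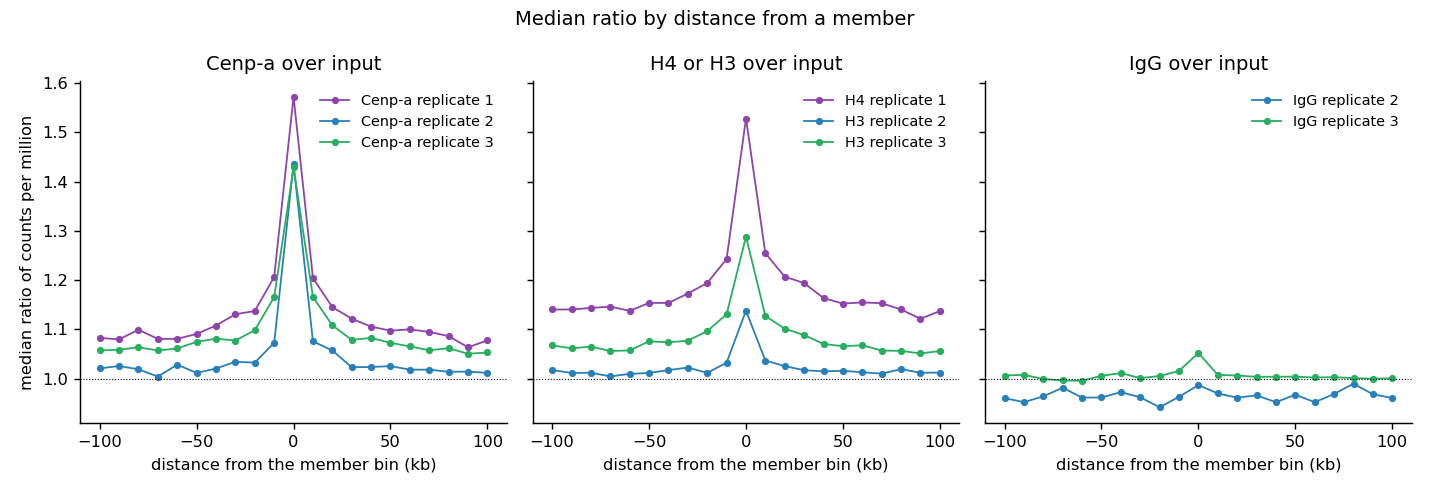
Median ratio of CPM by distance from a member (kb), for Cenp-a, H4 or H3, and IgG over the input of the same replicate. Distance 0 is the member itself and the other distances leave out bins that are members. Cenp-a in replicate 1 is at 1.57 in members and at 1.21 and 1.2 in the adjacent bins, and IgG stays between 0.942 and 1.05 throughout.

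The longest runs crossed genes. A run of 70 kb with 3 members lay at cdh6, which encodes a cadherin, on chromosome 6 (chr6:83916875-83986874, v10 assembly), with median Cenp-a to input ratios of 1.67, 1.51 and 1.40. Runs of 60 kb lay at armc4, which is needed for dynein arms of motile cilia (chr6:24601965-24661964, 4 members), and at ccnd2, which encodes cyclin D2 (chr3:11300492-11360491, 3 members). Runs of 50 kb with 4 members each lay at acsbg2 and mllt1 (chr1:101918348-101968347) and at abca1 (chr1:120049821-120099820). In the armc4 run the median ratios were 2.07, 1.63 and 1.57 for Cenp-a over input, 1.92 for H4 over input and 1.18 and 1.33 for H3 over input. In the abca1 run the median ratios were 1.69, 1.49 and 1.52 for Cenp-a over input, against 2.06 for H4 over input and 1.29 and 1.34 for H3 over input. H4 was thus above Cenp-a in replicate 1 of the abca1 run, and also of the cdh6 run (1.88 against 1.67). H3 was below Cenp-a in replicates 2 and 3 of all 5 runs. Members had to reach 1.3 in Cenp-a over input but not in H3 over input, so this order is in part built into the choice.

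Members occurred on all 10 chromosomes, from 0.402% of the eligible bins of chromosome 9 to 0.670% of those of chromosome 4. They lay away from the chromosome ends, with 75.2% over 30 Mb from the nearest end, against 59.2% of eligible bins, and 0.370% within 1 Mb of it, against 1.34%. The median distance from the end was 47.4 Mb in members and 37.4 Mb in eligible bins. By distance from the centromere position, 3.46% of members lay at 0.5 to 5 Mb, against 6.25% of eligible bins, 4.32% at 5 to 7.5 Mb, against 3.48%, and 92.2% beyond that, against 90.3%. The median distance was 33.5 Mb in members and 39.9 Mb in eligible bins, and the nearest member was 0.954 Mb away. The share within 5 Mb was thus lower in members than in eligible bins, while their median distance was shorter. Of 1454 windows of 1 Mb, 960 had no member and 19 had at least 5. The most, 10 of 100 bins, lay in 103 to 104 Mb of chromosome 4 and in 24 to 25 Mb of chromosome 6. Neighbouring bins share chromatin, so the members are not independent positions and these shares carry no test.

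Members were rich in genes. An annotated gene overlapped 723 of the 810 members (89.3%), against 63.1% of eligible bins, and 87 members (10.7%) had none, against 36.9%. A limit of a protein-coding gene lay in 48.1% of members, against 22.9% of eligible bins. Bins inside a protein-coding gene with no limit made up 37.8% of members, against 37.5% of eligible bins. Such bins were still members more often than bins without a gene, 306 of 53720 against 87 of 52827. The annotation used gives no strand, so starts and ends were not separated. Both properties stood side by side with position, since members made up 1.01% of eligible bins that had a gene and lay over 30 Mb from an end, 0.505% of bins with a gene nearer to an end, 0.239% of bins without a gene over 30 Mb from an end and 0.0486% of bins without a gene nearer to an end. The protein-coding genes that members overlapped had a median length of 25079 bp, against 15502 bp for those in eligible bins, and a long gene has more bins in which it can meet a member. Of 28588 genes in eligible bins, 903 overlapped a member (3.16%), of which 664 were protein-coding.

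**Figure D4:**
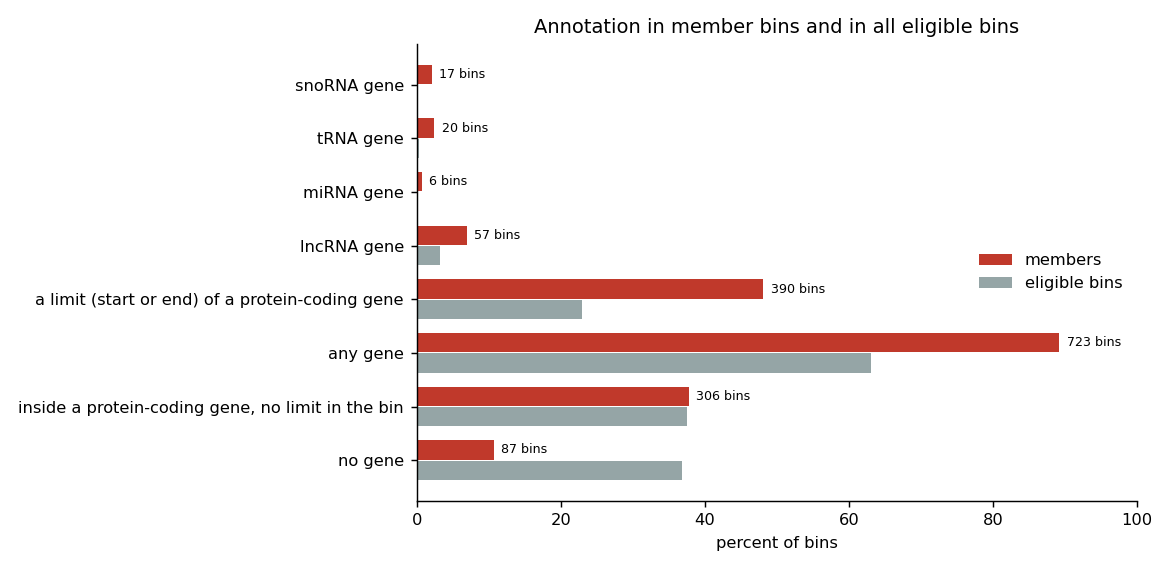
Share of bins (percent) with each kind of annotation, in the 810 members (red, upper bar, with the number of bins) and in the 143203 eligible bins (grey, lower bar). Gene limits are in 48.1% of members against 22.9% of eligible bins, and bins without a gene are 10.7% against 36.9%.

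Small RNA genes were over-represented by bin. A snoRNA gene, whose product guides the modification of other RNAs, lay in 17 members (2.10%), against 0.0950% of eligible bins, so that 12.5% of the 136 eligible bins with such a gene were members. These 17 bins held 57 of 342 snoRNA genes, and some of the bins also overlapped rpl4, rpl27a, rps2 or rps7, which encode ribosomal proteins, or eif4a2, which encodes an RNA helicase of translation initiation. In the 17 snoRNA bins the H4 to input median was 1.5, and H3 over input was 1.11 and 1.27. A tRNA gene lay in 20 members (2.47%), against 0.288% of eligible bins, which is 4.84% of the 413 eligible bins with such a gene. By gene the share was smaller, 92 of 2366 tRNA genes (3.89%) against 3.16% of all genes. The tRNA members had median ratios of 1.54, 1.5 and 1.5 for Cenp-a over input, against 1.3 for H4 over input and 1.08 and 1.18 for H3 over input.

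Several tRNA members were clusters of genes for different amino acids. The bin with the most, 13 tRNA genes, lay at chr10:13700983-13710982, with Cenp-a to input ratios of 2.51, 1.69 and 1.82, against 1.63 for H4 over input and 1.02 and 1.02 for H3 over input. At chr4:37942947-37952946, which has 6 tRNA genes beside rnaseh2c, a subunit of ribonuclease H2, the Cenp-a to input ratios were 1.9, 1.96 and 2.47, against 1.31 for H4 over input and 0.953 and 1.37 for H3 over input. On chromosome 3, 4 of the tRNA members lay between positions 135891294 and 136091293. The 2 members with rRNA genes were adjacent bins of chromosome 6 with 25 annotated copies of 119 bp each, between positions 152043213 and 152060194. They were 3.92% of the 51 eligible bins with an rRNA gene. By gene, 25 of 428 rRNA genes (5.84%) overlapped a member, against 3.16% of all genes. In the second of the 2 bins the Cenp-a to input ratios were 1.70, 1.37 and 1.58, and those of H4 and H3 1.33, 1.02 and 1.02. Reads of any mapping quality were counted, and a read from one copy of a repeated gene can be placed at another, so the level of a single array is uncertain.

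Of the other gene lists, to be read against the 3.16% of all genes that overlapped a member, histone genes had 7 of 28 in members (25%), among them h3c13, h3c14, h4c3, h2ac21 and h1-6, which encode histones H3, H4, H2A and H1, and h3f3b, which encodes a replacement variant of H3. The seventh, h2ac14, is annotated over 1.19 Mb, so its overlap says little about where the signal lies. The lists of protein families, in this paragraph and the next, were filled by gene symbol. Genes of a family that have only a LOC name are therefore not counted, and the totals are not whole families. Neither the 37 listed genes for kinetochore and centromere proteins nor the 44 listed olfactory, vomeronasal and taste receptor genes had a member. Of the listed genes, 1 of 21 protocadherin genes, 5 of 202 zinc finger genes and 1 of 553 pseudogenes did. Also without a member were the 8 transposon-derived genes and the 7 NLR and other innate immune genes, and snRNA genes had 3 of 595. At the share of all genes, lists as short as the receptor, kinetochore, protocadherin, transposon and innate immune lists would hold few genes or none, so nothing is read from their counts. By gene, the 51 lncRNA genes in members were 2.20% of the lncRNA genes in eligible bins, below the 3.16% of all genes. By bin, 57 members (7.04%) had an lncRNA gene, against 3.25% of eligible bins, so the 2 ways of counting differ in direction.

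Further lists were made after the values had been seen and serve only as description, beside the 3.16% of all genes. Ribosomal protein genes had 22 of 88 in members (25%), among them rpl10a and rplp0 with lowest-replicate ratios of 1.98 and 1.70. Translation factors had 8 of 65 (12.3%), with eef1a1, the factor that brings aminoacyl-tRNA to the ribosome, at 1.9. Actin and tubulin genes had 5 of 23 (21.7%), with actg1 at 1.83 and tuba1c at 1.82, and splicing factors of the SR and hnRNP families had 6 of 30 (20%), with srsf5 at 1.76. Immediate-early and stress genes had 13 of 44 (29.5%), among them the MAP kinase phosphatases dusp1, dusp5, dusp6 and dusp8, the transcription factors atf4, ddit3, fosl1, fosl2, klf6 and myc, and bhlhe40. MicroRNA genes had 10 of 186 (5.38%), nearer to the share of all genes, among them mir23a-1, mir24b and mir27a in a single bin. By bin, 6 members (0.741%) had a microRNA gene, against 0.0985% of eligible bins.

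The bins at the head of the list were mixed. The largest lowest-replicate ratios belonged to 2 neighbouring bins at LOC108647437 on chromosome 4, 28.9 Mb from the centromere position. In chr4:17721474-17731473 the read counts were 4731, 766 and 17476 in Cenp-a replicates 1, 2 and 3, 1022 in H4, 1009 and 837 in H3, 63 and 1669 in IgG and 764, 603 and 1224 in input. The Cenp-a to input ratios were 6.89, 3.97 and 4.86, against 1.53 for H4 over input and 1.10 and 1.18 for H3 over input. In chr4:17711474-17721473 the Cenp-a to input ratios were 6.46, 3.64 and 5.45, against 1.46 for H4 over input and 0.982 and 1.40 for H3 over input. IgG over input was 1.09 and 0.989 in the first of these bins and 0.797 and 1.11 in the second. All 3 Cenp-a ratios thus stood far above those of every other antibody, and of the 810 members these were the only 2 at 2 or more in Cenp-a over H3 or H4 in all 3 replicates. Their input level was 2.40 and 2.47 times that of the median bin. As at the tRNA and rRNA arrays, reads of any mapping quality were counted there. Whether reads from copies elsewhere in the genome were placed in these bins was not tested.

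Next were neighbouring bins of chromosome 4 with no annotated gene. The bin chr4:33832456-33842455 had Cenp-a to input ratios of 6.16, 2.64 and 3.04, against 3.13 for H4 over input and 1.2 and 1.65 for H3 over input. The bin before it had 3.01, 2.29 and 2.35, against 1.85 for H4 and 1.33 and 1.44 for H3. The stretch from 33 to 34 Mb of chromosome 4 had 8 members, among them 2 bins with tRNA genes.

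Replicate 1 was the highest of the 3 in each of these bins, and more so in the next. At vmp1, a membrane protein of autophagy (chr2:91437366-91447365), the Cenp-a to input ratios were 8.24, 2.26 and 3.77, against 5.66 for H4 over input in replicate 1 and 1.02 and 1.62 for H3 over input. H4 thus shared the excess of replicate 1. At higd1a, a mitochondrial protein induced by hypoxia (chr6:9430492-9440491), the Cenp-a ratios were 5.20, 2.00 and 2.10, against 2.83 for H4 over input and 1.11 and 1.14 for H3 over input. At dusp1, a phosphatase that inactivates MAP kinases (chr3:41973438-41983437), Cenp-a held 1078, 190 and 3547 reads, H4 held 645, H3 518 and 440, IgG 27 and 707, and input 373, 281 and 512. Its Cenp-a to input ratios were 3.22, 2.12 and 2.36, against 1.97 for H4 over input and 1.21 and 1.49 for H3 over input, with IgG at 1.01 and 1.00.

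The other 3 of the first 10 lay at a ribosomal protein gene or at snoRNA genes. The bin chr4:36462947-36472946 holds the lncRNA gene LOC100486597 and 8 snoRNA genes, and had Cenp-a to input ratios of 3.09, 2.07 and 2.14, against 2.41 for H4 over input and 1.23 and 1.31 for H3 over input. The bin chr4:98097857-98107856 holds LOC116410428 and 8 snoRNA genes, and had 2.70, 2.12 and 1.96 for Cenp-a, against 2.85 for H4, which was higher than Cenp-a, and 1.12 and 1.37 for H3. At rpl10a, which encodes a protein of the large ribosomal subunit (chr2:69475402-69485401), Cenp-a had 2.50, 1.98 and 2.21, against 2.21 for H4 and 1.38 and 1.60 for H3. In these 10 bins Cenp-a over input was above H3 or H4 over input in every replicate, apart from chr4:98097857-98107856 in replicate 1. The bins were picked for high Cenp-a over input and not for H3 or H4, so this order is in part built into the choice.

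**Figure D5:**
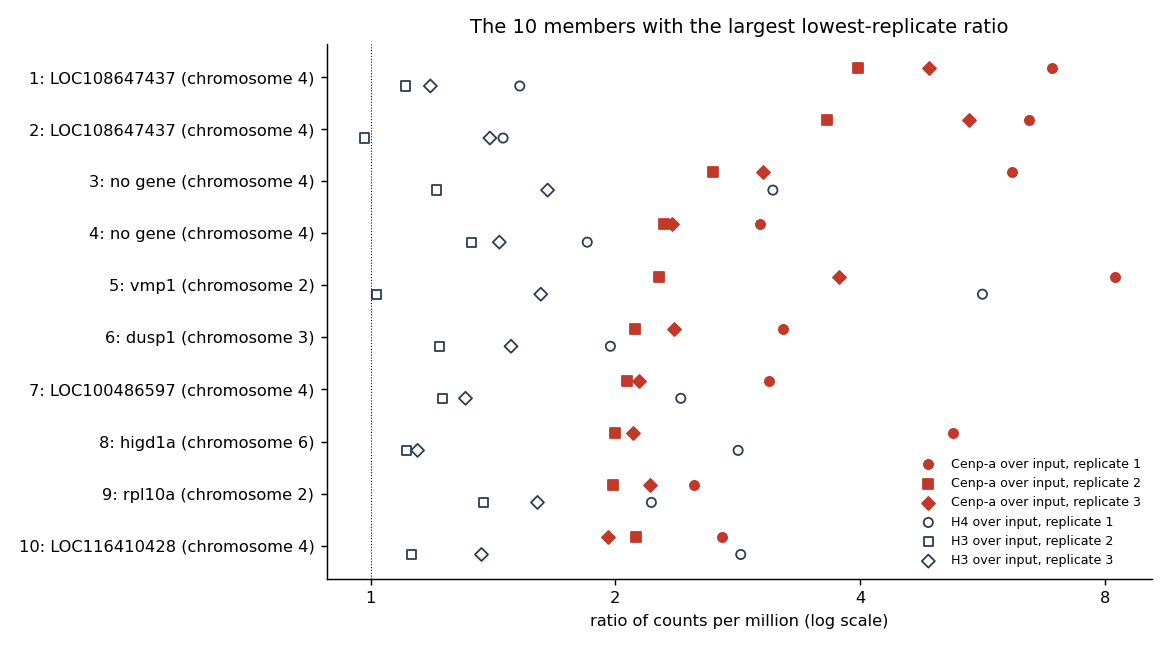
Cenp-a over input (filled) and H4 or H3 over input (open) in the 10 members with the largest lowest-replicate ratio, by replicate (circle 1, square 2, diamond 3), on a log scale of CPM ratios. The LOC108647437 bins have Cenp-a at 3.64 to 6.89 and H4 or H3 at 0.982 to 1.53, whereas at vmp1 H4 reaches 5.66.

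The following 20 members, named after their values were seen, had lowest-replicate ratios from 1.74 at dusp5 to 1.93 at ldlr, the receptor that takes up low-density lipoprotein. Others of the 20 were insig1, which holds the sterol sensor of the endoplasmic reticulum in place, scd, a fatty acid desaturase, and acsbg2, an acyl-CoA synthetase, and no list of genes of this kind was counted. The ldlr bin had Cenp-a to input ratios of 2.09, 1.93 and 2.01, against 1.86 for H4 over input and 1.11 and 1.18 for H3 over input. The insig1 bin with the larger ratio had 3.46, 1.81 and 1.83, against 1.70 for H4 and 1.02 and 1.13 for H3. Among the rest were adm, which encodes the vasoactive peptide adrenomedullin (3.25, 1.92 and 1.97 for Cenp-a, against 1.97 for H4 and 1.28 and 1.06 for H3), f3, the tissue factor that starts coagulation (2.09, 2.03 and 1.91, against 1.23 for H4 and 1.32 and 1.38 for H3), and egln3, a prolyl hydroxylase that marks hypoxia-inducible factors for destruction (2.99, 2.23 and 1.88, against 1.71 for H4 and 1.41 and 1.2 for H3).

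A few members had far more input than the others. The 3 highest, named after their values were seen, had no annotated gene and lay on chromosome 9 between positions 55614420 and 55814419, with input levels of 52.6, 47.5 and 33.2 times that of the median eligible bin. In the highest, Cenp-a to input ratios were 1.49, 1.32 and 1.44, against 1.57 for H4 over input, 1.32 and 1.40 for H3 over input and 1.14 and 1.11 for IgG over input. Cenp-a over H3 or H4 was 0.949, 1.00 and 1.03 there, so that in this bin, which holds many reads, Cenp-a differed little from bulk nucleosomes.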

How the data were processed

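Native MNase ChIP-seq and input libraries were analysed. The authors trimmed read pairs (Trimmomatic 0.39), aligned them to the v10 assembly (minimap2 2.17-r941), sorted them (SAMtools 1.9) and deposited raw read counts per non-overlapping 10-kb bin (deepTools 3.3.0), with reads of mapping quality 0 included. Removal of duplicates is not given in the sources used here. Between 0.0559% and 0.0704% of counts fell on scaffolds, whose 137 bins held no member. Gene limits came from RefSeq (UCB_Xtro_10.0), and chromosome numbers were matched by the last gene's end.

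Counts were scaled to the total on the chromosomes. A bin entered a test if 50% or more of the libraries of that comparison had 10 or more counts in it. Eligibility was not required for a test. All tested bins therefore include the members and bins near centromeres, and are a wider set than the eligible bins. Tests used edgeR 4.0.16 (R 4.3.3, glmQLFit robust, glmQLFTest), with a replicate term, because libraries were paired by number in the study's peak calling, and bins were called at a Benjamini-Hochberg adjusted p under 0.05. Each fit was also run on counts simulated with no replicate effect and the same dispersion for all bins, which cannot speak to the replicate term. Ratios use no pseudocount. Same-numbered libraries deviated together between Cenp-a and H3 or H4 (correlations 0.212, 0.182 and 0.163) but not throughout between Cenp-a and input (0.120, -0.043 and 0.125) or between H3 or H4 and input (0.138, -0.087 and 0.135). For H3 and IgG the correlation was 0.045, and for IgG and input -0.007. Alternatives were TMM factors, DESeq2 1.42.0, no filter, no replicate block and leaving out replicates.

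Named positions were the 10 members with the largest lowest-replicate ratio, the 5 longest runs, the 3 bins on either side of the limit and the 3 highest and 3 lowest in H3 over IgG, of which 1 is not reported here. The rule, the members and the gene lists were chosen with earlier results of these data known. No sequence was analysed here.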

Additional observations from a re-analysis of the deposited data

Results flagged for a closer look

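Of 711 bins outside the centromeres with fewer than 50 reads in at least 1 input, which are not eligible, 8 reached a Cenp-a to input ratio of 1.3 in all 3 replicates. Such bins are not among the members, but those that passed the count filter are among all tested bins. Their inputs held 0 to 52 reads, 2 of the 8 had an input without reads, and 4 of the 8 also had H3 or H4 over input at 1.3 or more in all 3 replicates. At this depth the ratios are uncertain by counting error alone. No group of libraries had the 4 samples that a search for single outlying libraries needs.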

How the results depend on the processing

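The number of members depended on the ratio limit and on the replicates: it was 2752 at a limit of 1.2, 116 at 1.5, 1136 to 2663 without 1 replicate, and 69 with H3 or H4 in place of input, of which 52 were members. A lower limit or fewer replicates can only add bins, and a higher limit can only remove them, so only the size of these changes is informative. The number of members stayed within 1.5 times of 810 under the other input minimums, TMM or DESeq2 size factors, and a centromere distance of 5 Mb. The share of members with a gene was 83.2% at a limit of 1.2, 91.4% at 1.5 and 79.4% to 85.8% without 1 replicate, alternatives chosen after seeing the data. In each case it was above the 63.1% of eligible bins. Without 1 replicate, Cenp-a was called above input in 451 to 809 members, and in 979 to 11120 of all tested bins. For Cenp-a against H3 or H4 the count was 10 with no replicate block and 28 to 80 without 1 replicate. Among all tested bins, 99 were called higher there with no replicate block and 128 to 185 without 1 replicate. For H3 or H4 against input it was 0 with TMM factors, 0 with no replicate block, 8 with DESeq2 and 19 to 502 without 1 replicate. Among all tested bins, 40 to 5066 were called higher in that comparison without 1 replicate, 57 with DESeq2 and 0 with TMM factors or no replicate block. H3 against IgG called 0 members with no replicate block. The pairing changed the calls of no other comparison by over 1.5 times. The median log2 ratio of members, computed per replicate with no test, was -0.0185 for IgG against input without replicate 3 and 0.0737 without replicate 2, so the sign rests on 1 replicate. The cause of these changes was not tested. The shallow IgG replicate 2 limits both IgG comparisons.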
